A study of Caenorhabditis elegans with 2 samples.

Results

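Small nucleolar RNA (snoRNA) genes that stand outside protein-coding genes were examined for binding of LIN-26::GFP in Caenorhabditis elegans. A gene was taken when its annotated class was snoRNA and it did not lie wholly within the body of a protein-coding gene on either strand. This gave 130 of the 346 nuclear snoRNA genes of the Ensembl annotation, against 216 that lie inside protein-coding genes. The sets are called outside and inside genes. The data came from chromatin immunoprecipitation and sequencing (ChIP-seq) of whole animals, harvested as young adults of 64 hours. There was 1 group with 2 biological replicates. Both replicates carried a CRISPR insertion of GFP at lin-26, with loxP sites and unc-119(+) as marker, in an unc-119(tm4063) III background, and had been synchronized as starved L1 larvae after bleaching. The description in the labels names an anti-GFP antibody, while the antibody field names lin-26, and chromatin was sonicated to 200 to 800 bp. Untagged animals, other stages and other strains were not analysed here, so no conditions are compared. The whole animal was the material, so a site bound in few cells and a site bound weakly in many cannot be told apart.

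snoRNAs guide chemical changes of ribosomal and spliceosomal RNA in the nucleolus. C/D snoRNAs, which carry the C box and the D box, guide methylation of the ribose, and H/ACA snoRNAs, which end in an ACA box, guide the conversion of uridine to pseudouridine. Many snoRNAs are cut out of the introns of a host gene, while a snoRNA gene between genes can have a promoter of its own. Worm genes for small RNAs are known to use several kinds of promoter. In one, the A box and B box of a tRNA-type promoter are bound by the factor TFIIIC, which brings in RNA polymerase III. In another, known from snRNA genes, a proximal sequence element (PSE) upstream of the gene is bound by the complex SNAPc. LIN-26 itself, with its zinc fingers, is known for keeping epidermal cells epidermal.

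The sequences upstream of the snoRNA genes held 2 recurrent kinds of letters, and the values below are ordered by them. The first kind was a tRNA-like pair on the gene's strand, within 100 bases before to 20 after the 5′ end. It consisted of A letters, which are TGG, an A after 3 further bases and GG after another 2 or 3, and of B letters, GTTCNA, whose start lies 35 to 55 bases after that of the A letters. The second kind was GGAAC and TGTC with 8 bases between them, in the same window and on the same strand, called PSE-like here for its position. Both were defined after these upstream sequences had been seen, so the counts by letters are descriptions. A match is a string of letters and not a mapped site.

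The pair of A and B letters is shown in the 90 bases before the 5′ end of 5 genes with strong peaks and of T10B9.11, which had no summit in the list of both replicates. Sequences are from the RefSeq copy of assembly WBcel235 and run 5′ to 3′ on the gene's strand, and capitals mark the A letters and then the B letters.
W03C9.9, II:11960808-11960897, plus strand: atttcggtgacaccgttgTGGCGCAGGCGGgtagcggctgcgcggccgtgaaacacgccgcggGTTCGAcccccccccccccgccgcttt
Y75B12B.12, V:15191094-15191183, minus strand: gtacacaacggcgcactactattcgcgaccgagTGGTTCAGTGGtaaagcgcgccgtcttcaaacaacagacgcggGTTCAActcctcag
T06C12.16, V:15873927-15874016, minus strand: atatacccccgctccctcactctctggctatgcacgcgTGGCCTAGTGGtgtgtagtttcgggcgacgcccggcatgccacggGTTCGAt
F32E10.10, IV:7574032-7574121, plus strand: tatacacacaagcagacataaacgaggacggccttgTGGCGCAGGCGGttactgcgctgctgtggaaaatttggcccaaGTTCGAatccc
C41C4.11, II:8107271-8107360, minus strand: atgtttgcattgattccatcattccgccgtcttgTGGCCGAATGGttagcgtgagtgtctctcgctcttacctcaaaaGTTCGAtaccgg
T10B9.11, II:9774835-9774924, minus strand: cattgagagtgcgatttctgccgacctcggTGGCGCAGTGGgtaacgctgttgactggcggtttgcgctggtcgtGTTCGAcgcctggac

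The PSE-like letters are shown in the same way, with both ends of the element in capitals. They are given for 5 genes with a summit and for C18A3.12, whose peak missed the threshold of the list of both replicates.
F43A11.8, V:11585362-11585451, minus strand: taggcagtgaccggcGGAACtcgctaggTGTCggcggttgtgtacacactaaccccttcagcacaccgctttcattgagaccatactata
Y67A10A.14, IV:14327122-14327211, minus strand: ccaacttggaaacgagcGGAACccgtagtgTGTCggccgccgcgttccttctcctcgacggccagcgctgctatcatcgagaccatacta
K02F6.11, II:2556799-2556888, minus strand: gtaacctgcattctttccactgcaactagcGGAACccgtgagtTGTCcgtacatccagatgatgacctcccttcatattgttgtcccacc
Y53F4B.47, II:15025894-15025983, minus strand: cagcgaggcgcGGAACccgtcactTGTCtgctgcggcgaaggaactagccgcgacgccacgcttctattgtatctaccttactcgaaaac
W03B1.17, IV:4347542-4347631, plus strand: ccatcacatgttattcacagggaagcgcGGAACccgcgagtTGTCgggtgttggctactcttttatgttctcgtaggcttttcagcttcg
C18A3.12, II:5701572-5701661, plus strand: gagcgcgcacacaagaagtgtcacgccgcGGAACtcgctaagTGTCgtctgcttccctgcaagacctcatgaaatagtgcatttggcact

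Each peak of the deposited lists has a summit and a signal value, given by the authors' peak caller relative to a control. Signal ranks peaks within a list and is not scaled between lists. The list built from both replicates held 3187 nuclear peaks with a median signal of 112.1, and the lists of replicate 1 and replicate 2 alone held 1191 and 2083 nuclear peaks, with median signals of 78.4 and 87.0. The lists carry no read counts, so the depth is unknown.

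A summit of the list of both replicates lay within 500 bp of 45 of the 130 snoRNA genes outside protein-coding genes, or 34.6% (95% Wilson interval 26.99 to 43.13%, which covers counting error only). The share was 36.1% (30 to 42.7%) for the snoRNA genes inside protein-coding genes, 78 of 216, and 8.8% for all 46890 annotated nuclear genes. Outside and inside snoRNA genes therefore had overlapping intervals, and both stood above the background of all genes. Other small RNA genes lay higher still, with 43.4% of snRNA genes and 82.0% of tRNA genes near a summit, while 11.9% of protein-coding genes were. Each of the 45 snoRNA genes had a strongest summit of its own, and no summit was shared with another snoRNA gene. By contrast, 12 of the 78 inside genes with a summit shared it with another snoRNA gene.

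Each replicate alone showed the same picture with fewer peaks. In the list of replicate 1, 30 snoRNA genes outside protein-coding genes had a summit (23.1%), against 26.9% of the inside genes and 4.5% of all genes. In the list of replicate 2 the count was 37 (28.46%), against 31.5% of the inside genes and 6.56% of all genes. A summit in both replicates' own lists was found at 27 outside genes (20.8%, 14.7 to 28.53%), against 22.2% of the inside genes and 3.99% of all genes. Among the 45 genes of the list of both replicates, 2 further genes were in the list of replicate 1 only, 10 in that of replicate 2 only and 6 in neither. The conservative list of the authors held a summit at 43 outside genes (33.1%), against 7.85% of all genes, and 41 of these were among the 45.

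**Figure D1:**
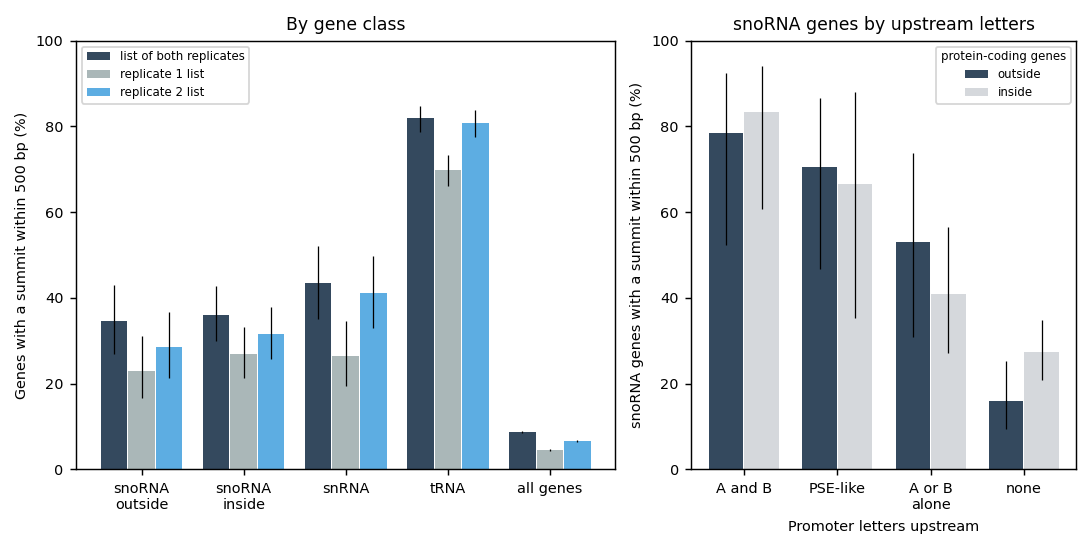
Share of genes with a summit within 500 bp, in percent. Left, by gene class in the list of both replicates and in the list of each replicate. Right, snoRNA genes outside and inside protein-coding genes by upstream letters, in the list of both replicates. Bars are shares and lines 95% Wilson intervals. Outside and inside snoRNA genes stand at 34.6% and 36.1%, above 8.8% of all genes, and the share of outside genes is 78.6% with A and B letters, 70.6% with PSE-like letters and 15.9% with none of these letters.

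The summits lay close to the 5′ ends. The nearest summit stood at a median of 27 bp upstream of the 5′ end of the outside genes (position −27, quartiles −48 and 30), and at a median position of 2.5 for the inside genes. It lay upstream of the 5′ end at 29 of 45 outside genes (64.4%, 49.8 to 76.8%), against 37 of 78 inside genes (47.4%, 36.7 to 58.4%). Within the gene lay 11, and 5 lay beyond its 3′ end. The summit was within 100 bp of the 5′ end at 30 of 45 outside genes (66.7%, 52.1 to 78.6%). For the inside genes it was 43 of 78 (55.1%, 44.1 to 65.7%), and these intervals overlap. At 43 of the 45 genes the strongest summit was nearer to the snoRNA gene's 5′ end than to any annotated protein-coding 5′ end. The same held at 63 of the 78 inside genes. The outside genes with a summit had a median length of 121 bp, against 154 bp for the 85 without one. Inside genes had medians of 126.5 bp with a summit and 127 bp without.

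Peaks at these genes were among the stronger ones in the list. The strongest summit per gene had a median signal of 249.9 (range 77.5 to 1063) at the 45 outside genes, against 163.9 (49.5 to 1060) at the 78 inside genes and 112.1 over all nuclear peaks. Of the 45, 38 were at or above the median of all nuclear peaks, 16 were among the 100 strongest peaks and 22 among the 300 strongest. High ranks were not particular to the outside genes. Of the 78 inside genes, 62 were at or above the median of all nuclear peaks, 13 were among the 100 strongest and 30 among the 300 strongest. In the lists of replicate 1 and replicate 2 the medians at outside genes were 134.9 (n = 30 genes) and 211.8 (n = 37 genes), against list medians of 78.4 and 87.0. The order of the genes was alike in both replicates, with a Spearman correlation of 0.932 over the 27 genes found in both. This is a description across genes, which share the libraries. The summits of the replicates were a median of 12 bp apart at these genes, and at most 65 bp.

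**Figure D2:**
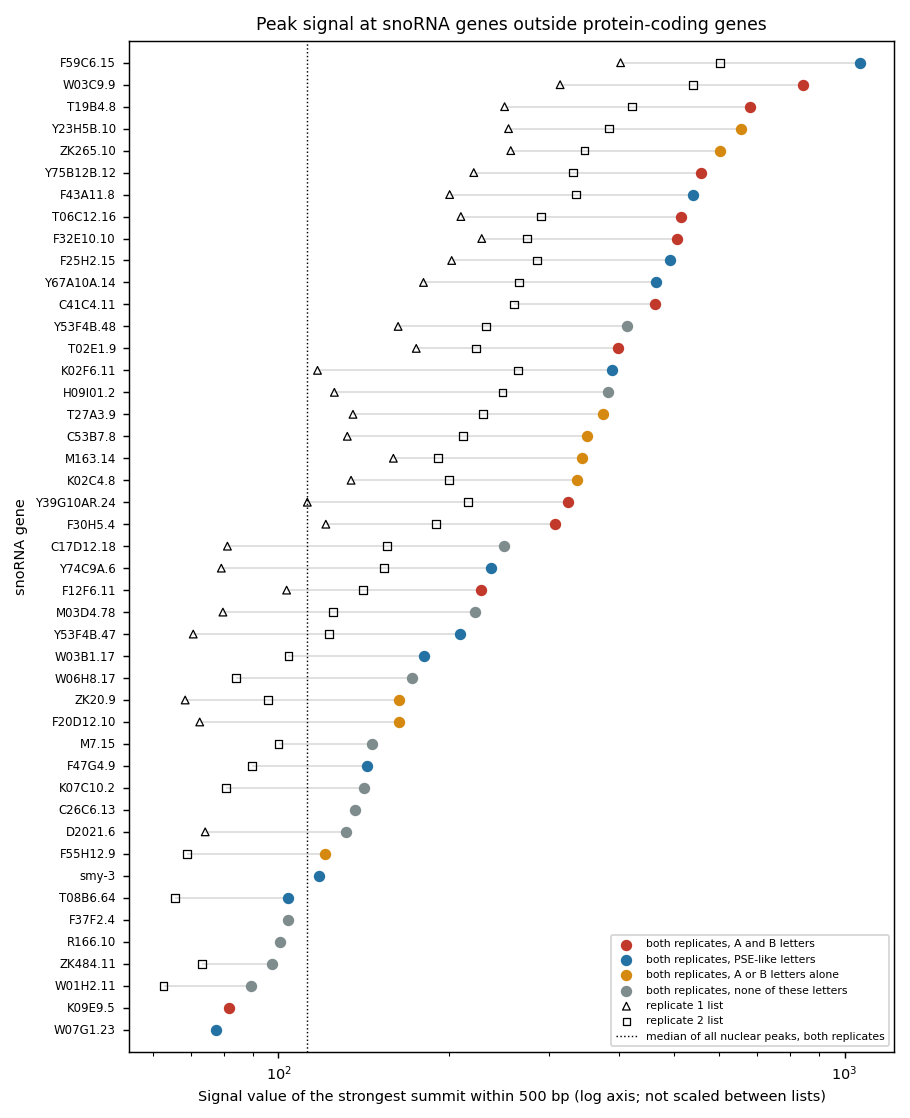
Signal of the strongest summit within 500 bp of each of the 45 snoRNA genes with a summit (log axis). Filled circles are the list of both replicates, coloured by upstream letters, and open triangles and squares are the lists of replicate 1 and replicate 2. A gene without an open symbol had no summit in that replicate's list. The lists are not scaled to each other. The genes at the top are mostly red, blue and orange, that is, with A or B letters or PSE-like letters, and the genes missing from a replicate's list are mostly among those with lower signal.

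Of the 14 outside genes with A and B letters, 11 had a summit (78.6%, 52.4 to 92.4%). Their peaks had a median signal of 463.0 (81.7 to 845.6), and 9 of the 14 genes were in both replicates' lists. These genes were short, with a median length of 73 bp. The A letters began at a median of 56.5 bases upstream of the 5′ end (−72 to −50) and the B letters at 13 bases upstream (−27 to −5), so that both began before the gene. The summit fell between the start of the A letters and the start of the B letters at 8 of the 11 genes, a median of 15 bases after the start of the A letters. The 10 strongest of these peaks lay close together, from 60 bp upstream to 3 bp downstream of the 5′ end. None of the 11 had an annotated tRNA or snRNA gene within 500 bp of its summit.

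W03C9.9 on chromosome II (II:11960898-11960959, plus strand) had the strongest peak of this kind. Replicate 1 gave it a signal of 314, replicate 2 gave 540 and the list of both 846, where it ranked 9, with the summit at −60. It is also 1 of the 5 outside genes that are C/D-like by sequence, with a C box near the start and a D box near the end, both in capitals here, in its whole gene of 62 bases.
W03C9.9, II:11960898-11960959, plus strand: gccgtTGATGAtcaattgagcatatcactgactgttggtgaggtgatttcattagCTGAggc

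T19B4.8 on chromosome I (I:5707046-5707119) had signals of 251 in replicate 1 and 421 in replicate 2, and 681 in the list of both, with the summit at −47. T06C12.16 on chromosome V (V:15873855-15873926) had 210 and 291 in the replicates and 514 in both, with the summit at −37. F32E10.10 on chromosome IV (IV:7574122-7574191) had 229 and 275, and 506 in both, with the summit at −48. These 3 genes are each less than 80 bases long, and in all of them the summit fell inside the interval from the A to the B letters. Y75B12B.12 on chromosome V (V:15190976-15191093) had 221 and 331, and 557 in both, but its summit lay at position 3, past the B letters. C41C4.11 on chromosome II (II:8107196-8107270) stood apart in its replicates, with 261 in replicate 2, 463 in the list of both and no peak within 500 bp even in the full ranked list of replicate 1. The remaining genes of this kind with a summit were T02E1.9, Y39G10AR.24, F30H5.4, F12F6.11 and K09E9.5. Their signals in the list of both ran from 81.7 at K09E9.5 to 398 at T02E1.9.

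The pair also occurred at snoRNA genes inside protein-coding genes, with more varied positions. There 18 of 216 genes (8.33%) had the pair, against 14 of 130 outside genes (10.8%), and 15 of the 18 had a summit (83.3%, 60.8 to 94.2%) with a median signal of 313.3. The median position of the summit was −44 for the outside genes and −37 for the inside genes. At the inside genes the A letters began anywhere from −99 to −46, the summit lay a median of 24 bases after their start, and 9 of the 15 summits fell between the A and B letters. In the windows of protein-coding genes of the same length and position, 7 of 19973 (0.0350%) held the pair, and none of 129 snRNA genes did. tRNA genes carry their A and B boxes within the gene. At the 277 of 502 tRNA genes with a summit that hold the same letters, the B letters began a median of 44 bases after the A letters and the summit lay a median of 13 bases after the start of the A letters, against 44 and 15 bases at the outside snoRNA genes and 45 and 24 bases at the inside ones. A run of 5 T, the signal at which RNA polymerase III is known to stop, lay within 50 bases after the gene at 12 of the 14 outside genes with the pair (85.7%). The share was 52.9% of the outside genes with A or B letters alone, 29.4% with PSE-like letters and 28.0% with none of the letters, against 42.6% of the inside genes and 35.7% of protein-coding genes.

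**Figure D3:**
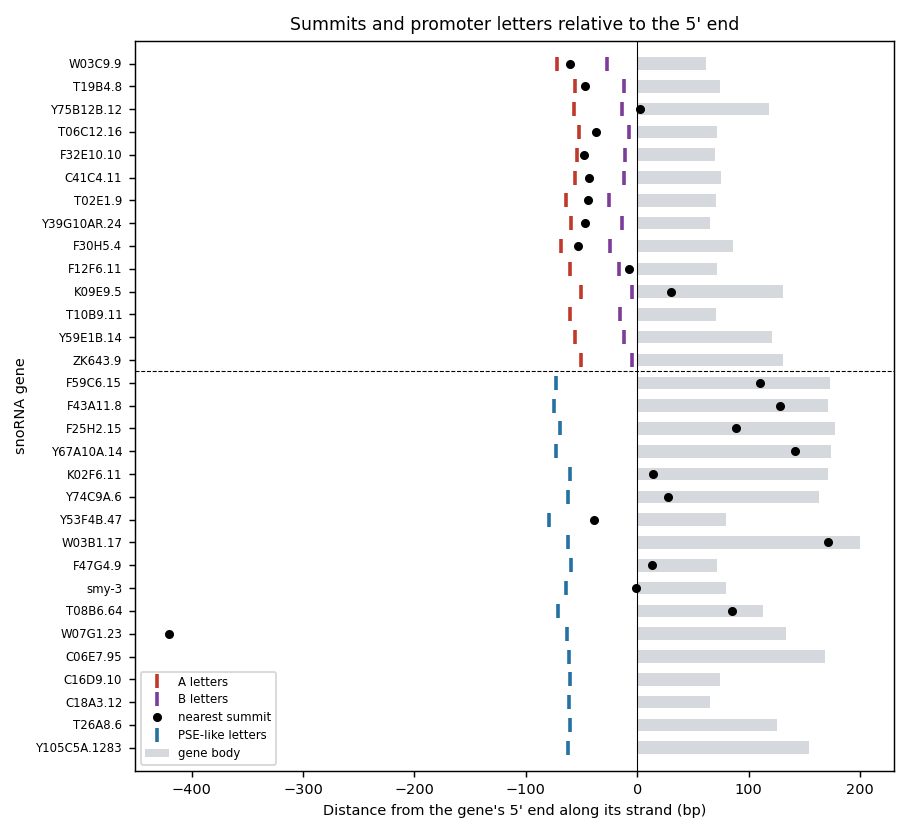
Position of the nearest summit (black points) along the gene's strand, in bp from the 5′ end, for the 14 outside genes with A and B letters (above the dashed line) and the 17 with PSE-like letters (below). Ticks mark the start of the letters and grey bars the gene. In the upper set 8 of 11 summits lie between the A and B ticks, and in the lower set 11 of 12 lie after the PSE-like tick, most of them within the gene. Genes without a point had no summit within 500 bp.

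Of the 17 outside genes with PSE-like letters, 12 had a summit (70.6%, 46.9 to 86.7%). Their median signal was 223.3, with a wide range of 77.5 to 1063, and 7 of the 17 were in both replicates' lists. The letters began at a median of 62 bases upstream of the 5′ end, in the narrow range of −79 to −59. The summits did not sit on the letters. They lay a median of 123 bases after the start of the letters and at a median position of 56.5 from the 5′ end, within or near the gene, and only at W07G1.23 did the summit lie upstream of the letters. Of these 12 genes, 4 are near-identical copies, described next, and over the other 8 the medians were 73 bases after the start of the letters and position 13.5. All these medians of position take the nearest summit. At K02F6.11 that is a weak summit of signal 4.48 at position 14, and its strongest summit, at 218, would raise them. The 17 genes were longer than those with A and B letters, with a median of 154 bp.

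The strongest peak at any outside gene was at F59C6.15 on chromosome I (I:10516978-10517150, minus strand), with a signal of 402 in replicate 1, 603 in replicate 2 and 1063 in the list of both. It ranked 4 in that list, and its summit lay 110 bp into the gene. F25H2.15 on chromosome I (I:10565266-10565443) had 202 and 286 in the replicates and 493 in both, with its summit at 89. Y67A10A.14 on chromosome IV (IV:14326948-14327121) had 180 and 266, and 464 in both, with its summit at 142. These 3 genes are near-identical copies, between 96.0% and 97.2% identical along their length, and the 3 peaks are on separate stretches of chromosomes I and IV. F43A11.8 on chromosome V (V:11585191-11585361), with 200.6 and 335.4 in the replicates and 539 in both, is 90% identical to F59C6.15 and 98.2% identical to the inside gene T19C4.11. No label or header says how reads that map to several copies were placed, so the split of signal between these genes is uncertain.

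The other genes with PSE-like letters and a summit had lower peaks. K02F6.11 on chromosome II had 117 and 265 in the replicates and 389 in the list of both. It had a pair of summits, the stronger at 218, beyond the end of the gene, and a weak one of signal 4.48 at 14. Y74C9A.6 on chromosome I had 238 and Y53F4B.47 on chromosome II had 209 in the list of both, and each was in both replicates' lists. W03B1.17 (181), F47G4.9 (143) and T08B6.64 (104) were in the list of replicate 2 and not in that of replicate 1. smy-3 (118) and W07G1.23 (77.5) were in neither. W07G1.23 had 16 near-identical places in the genome, and its summit lay 420 bp upstream.

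PSE-like letters were rarer at snoRNA genes inside protein-coding genes, with 9 of 216 (4.17%), against 17 of 130 outside genes (13.1%). Of the inside genes with them, 6 of 9 had a summit (66.7%). The letters also stood upstream of 25 of 129 snRNA genes (19.4%) and of 8 of 19973 protein-coding genes (0.0401%). Across the genome the letters occurred at 1404 places on either strand. Of the 19 places within 100 bp of an outside snoRNA gene, 11 had a summit within 200 bp, against 63 of the 1385 places elsewhere (4.55%). The letters were defined from the sequences beside these genes, and 34.6% of all outside genes had a summit within 500 bp whatever their letters. This contrast therefore cannot separate the letters from nearness to a snoRNA gene. Copies bear on this group, since 11 of its 17 genes had a near-identical copy.

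The strings of 7 bases most frequent in the 100 bases upstream of the outside genes were mostly overlapping pieces of the PSE-like stretch, which had been defined from the same sequences, and near-identical copies count in them more than once. The most frequent string was GCGGAAC, at 15 of the 130 outside genes, of which 10 had a summit, and at 32 of 19973 protein-coding genes (0.160%). TGTCGGC followed at 14 genes, 7 of them with a summit, then CGGAACC and GGAACCC at 13 each, 10 of them with a summit in both cases. The next was AAAAATT, at 12 outside genes, 3 of them with a summit, and it was common upstream of protein-coding genes too (10.9%).

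**Figure D4:**
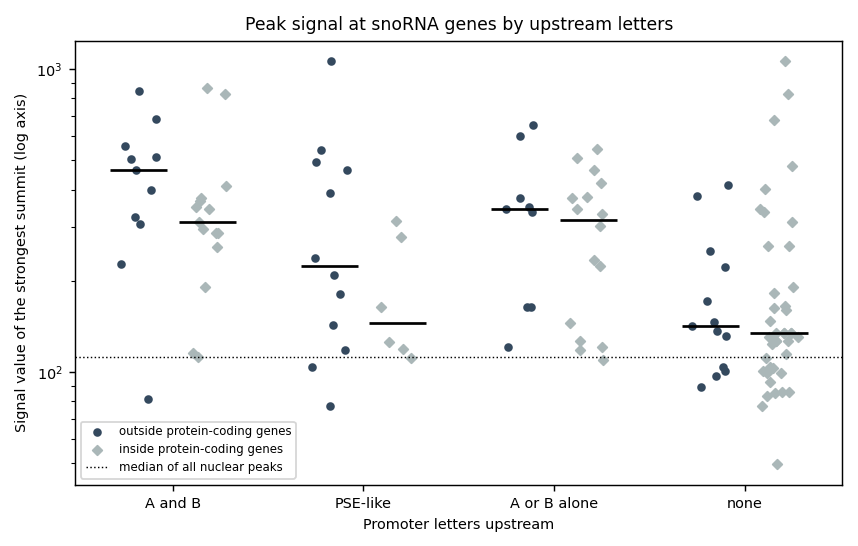
Signal of the strongest summit (log axis, list of both replicates) at snoRNA genes outside (circles) and inside (diamonds) protein-coding genes, by upstream letters. Each point is a gene, black lines are medians and the dotted line is the median of all nuclear peaks, 112.1. The medians of the outside genes are 463.0 with A and B letters, 223.3 with PSE-like letters, 343.7 with A or B letters alone and 141.7 with none of these letters.

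A further 17 outside genes had the A letters or the B letters alone, and 9 of them had a summit (52.9%, 31.0 to 73.8%), with a median signal of 343.7 and a median position of −27. The strongest was Y23H5B.10 on chromosome I (I:2514168-2514311), with B letters only, at 255 in replicate 1, 383 in replicate 2 and 656 in the list of both. ZK265.10 on chromosome I (I:8259437-8259498), with A letters only, had 257 and 347 in the replicates and 602 in both. Their summits lay at −48 and −60, the same stretch as at genes with the whole pair.

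The next genes with A or B letters alone had weaker peaks. C53B7.8 on chromosome X (X:6867938-6868008) had 132 and 212 in the replicates and 351 in both, and K02C4.8 on chromosome II (II:8075509-8075643) had 134.3 and 200.0 in the replicates and 337 in both. Their summits lay 27 and 13 bp upstream of the 5′ end. T27A3.9 had 135 and 230 in the replicates and 374 in both, with its summit at −33. M163.14 on chromosome X, at 159.6 and 191 in the replicates and 344 in the list of both, was the one outside gene whose summit also lay within 500 bp of a tRNA gene, and that summit was 473 bp from the snoRNA's 5′ end.

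The 82 outside genes with none of these letters made up most of the set and had the lowest share, with 13 near a summit (15.9%, 9.51 to 25.3%), against 8.8% of all genes. Their median signal was 141.7, and the corresponding inside genes had 41 of 150 near a summit (27.3%) with a median of 134.3. The strongest was Y53F4B.48 on chromosome II (II:15165894-15166028), with 163 in replicate 1, 233 in replicate 2 and 414 in the list of both, and its summit at −24. H09I01.2 on chromosome IV followed, with 126 and 249 in the replicates and 381 in both, and its summit at −40. Y53F4B.48 is H/ACA-like by an ACA just before its 3′ end, in capitals here. The H box and the fold were not examined.
Y53F4B.48, II:15165894-15166028, minus strand: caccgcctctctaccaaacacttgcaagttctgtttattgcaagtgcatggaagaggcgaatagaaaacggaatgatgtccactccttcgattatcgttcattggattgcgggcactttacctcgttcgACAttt

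Taken by boxes in the annotated gene, 5 outside genes were C/D-like, with TGATGA in the first 30 bases and CTGA in the last 30, and 21 were H/ACA-like, with an ACA that ended 2 to 5 bases before the 3′ end. The other 104 had neither. Summits were near 3 of the 5 C/D-like genes, 10 of the 21 H/ACA-like genes (47.6%, 28.3 to 67.6%) and 32 of the 104 without a class (30.8%, 22.7 to 40.2%), and these intervals overlap. With 1 mismatch allowed in the C box, 18 genes were C/D-like and 93 had no class. Most of these 18 genes had a summit, and most of the 93 had none. No intervals were computed for this wider rule, so the overlap concerns the strict boxes only.

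Letters searched on both strands from 250 bases before to 50 after the 5′ end gave a similar account. The stricter B-box string GTTCGANNC lay at 7 of the 45 outside genes with a summit (15.6%) and at 5 of the 85 without (5.88%), against 1.58% of protein-coding genes. The stricter A-box string, TGGC, 2 bases, AG, 2 bases and G, lay at 7 and at 4 (4.71%), against 1.502% of protein-coding genes. TATAAA, the core of the TATA box, lay at 14 of 45 with a summit (31.1%) and 26 of 85 without (30.6%), both below the 37.9% of protein-coding genes. GAGAGAGA was found at 2 (4.44%) and at 5 genes (5.88%), against 3.54% of protein-coding genes. Of the inside snoRNA genes, 6.94% held the B-box string, 10.6% the A-box string, 21.3% TATAAA and 4.17% GAGAGAGA. The shares of all outside genes were 9.23%, 8.46%, 30.8% and 5.38%, so the A-box string was not more frequent at outside genes.

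By chromosome, 15 of 30 outside genes on chromosome I had a summit, 10 of 28 on II, 1 of 10 on III, 9 of 23 on IV, 5 of 16 on V and 5 of 23 on X. The numbers per chromosome are small, and no order is read from them. No share of all genes is given per chromosome, so these counts do not show a departure from background. Of the 124 outside genes that overlap no protein-coding gene, 42 had a summit. At 77 of these genes the nearest protein-coding gene was on the same strand, and 26 of the 77 had a summit. At 47 it was on the opposite strand, and 16 of the 47 had a summit. No share of all genes is given by strand of the neighbour, so no departure from background is read here either.

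Genes at the edge of the 500 bp distance show what the limit takes in. The last gene inside it was C17D12.18 on chromosome I, 482 bp from a summit with a signal of 81.2 in replicate 1, 155.3 in replicate 2 and 249.9 in the list of both. The first outside it was K08F11.8, 533 bp from a summit of signal 133.2.

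Of the 85 outside genes without a summit, 52 had some peak within 500 bp in the full ranked list of both replicates and 33 had none. The irreproducible discovery rate (IDR) grades how well a peak's rank repeats between sets of reads, and the lowest score in the lists corresponds to an IDR of 0.01. The best IDR at the 52 genes had a median of 0.294, and 11 genes were at or below 0.05. The lowest was WBGene00220185 on chromosome IV (IV:14780839-14780933), with an IDR of 0.0007 and a signal of 139.5 in the ranked list. This peak was past the threshold and absent from the thresholded list, like 81 nuclear peaks of the ranked list in all, and the reason was not tested. C18A3.12 followed at 0.0122 with a signal of 89.9, C34E11.20 at 0.0133 with 75.6 and F09G2.14 at 0.0154 with 81.5. C18A3.12 is the gene with PSE-like letters shown above, and a summit of the conservative list lay 5 bp upstream of it. The only other outside gene with a summit in the conservative list and none in the list of both was F17C11.24, at a signal of 107.2.

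T10B9.11, shown above with its A and B letters, was the only outside gene with a summit in a replicate's list and none in the list of both. Its signal in replicate 1 was 85.8, with the summit at −12, and neither the ranked list of replicate 2 nor that of both replicates had a peak within 500 bp. The other genes with A and B letters and no summit were Y59E1B.14 and ZK643.9, neither of which had a ranked peak nearby. ZK643.9 is 94.7% identical to K09E9.5, which had a summit of signal 81.7 in the list of both. Among genes with PSE-like letters, T26A8.6 had no ranked peak nearby and is 96.0% identical to T08B6.64, which had a summit of signal 103.9. In both pairs the copy with a summit had a weak peak, below the list median of 112.1.

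The proteins that bind snoRNAs are encoded by genes of another kind. Fixed for this purpose were 9 protein-coding genes for core proteins of snoRNA particles and an assembly factor, among them fib-1, which encodes the methylase fibrillarin, nol-56 and nol-58 of the C/D particle, and dkc-1, the pseudouridine synthase of the H/ACA particle. A promoter summit, from 1000 bp upstream to 200 bp downstream of an annotated 5′ end, was found at 0 of the 9, against 6.66% of all protein-coding genes. With 9 genes, the 95% Wilson interval reaches 29.9%, so a share like that of all genes would not be detectable here.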

How the data were processed

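The starting point was 7 of the deposited peak lists of LIN-26::GFP ChIP-seq in whole young adults, on assembly ce11, which names the same sequence as WBcel235. Per the deposited README text, the lists were made from each replicate's alignments or from those of both replicates, against a control. The sources used here do not give the peak caller, the aligner, their versions or the handling of reads with several positions. For each peak, the signal value that the authors deposited is the caller's own. From the ranked list, the −log10 global IDR that the authors deposited was turned into an IDR, and 8 columns of that list on the inputs compared for IDR, which carry no sample name, were not used.

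Genes came from Ensembl release 115 and sequences from the RefSeq WBcel235 genome. A gene counted as near a peak when a summit lay within 500 bp of its body. Positions are counted from the 5′ end along the gene's strand, and coordinates from 1. Near-identical copies are other places with at least 90% identity over at least 90% of the gene, found with BLAST 2.17.0. The design has 1 group and allows no test between conditions, so no p-value is given. Shares carry 95% Wilson intervals, which cover counting error only, and stand beside those of all annotated genes. Counting was tested on simulated summits. Python 3.11.15, numpy 2.4.6, pandas 2.3.3, statsmodels 0.14.6 and matplotlib 3.10.9 were used.

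The gene set, the lists and the alternatives were chosen with earlier results of these data known, and the A and B letters and PSE-like letters after the upstream sequences were seen. The rule for named genes took the 12 strongest peaks, the genes on either side of 500 bp, up to 6 further genes found in both replicates, up to 4 found in a replicate's list only, up to 4 with the lowest IDR and the snoRNP genes with a promoter summit. Other genes are named for their letters or copies, after their values were seen. Alternatives covered the distance, the list, each replicate, peak strength, membership, copies, neighbouring tRNA genes, the IDR threshold and letter windows.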

Additional observations from a re-analysis of the deposited data

How the results depend on the processing

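The count of 45 of 130 outside genes with a summit ranged from 33 of 109, with near-identical copies left out, to 59 of 163, with containment judged on the same strand only. At both ends the number of genes in the set changed too. Over the unchanged 130 genes the spread was wider as a share. The count was 36 where the peak had to overlap the gene and 38 with summits within 250 bp. It was 55 with summits within 1000 bp and 56 with an IDR up to 0.05 in the ranked list. These ranges cover the distances, lists, strengths, membership rules and IDR threshold tried, leaving out the replicates and the identifier split. The list of 1 replicate gave 30 to 37 genes, a median position of −32 to −13, an upstream share of 56.8% to 63.3% and a median signal of 134.9 to 211.8. The median signal of 249.9 became 331.1 with summits within 250 bp, 308.3 in the conservative list and 340.6 with only peaks at or above the list median, each of which takes fewer or stronger peaks. Among genes with an identifier below WBGene00200000, a split chosen after seeing the data, 28 of 36 had a summit. Allowing 1 mismatch in the C box gave 18 C/D-like genes in place of 5, and the window from 150 bases before the gene held TATAAA at 26 genes in place of 40. The counts of genes with A and B letters (14) and PSE-like letters (17) were the same in a window from 250 before to 50 after the 5′ end. The other 2 groups were not stable. In that window many genes passed from none of these letters to A or B letters alone, and most of them had no summit. The share of 52.9% with A or B letters alone therefore holds for the narrower window only. Without F59C6.15 and its near-identical copies, left out after seeing the data, the summits at genes with PSE-like letters had a median position of 13.5 in place of 56.5 and lay a median of 73 in place of 123 bases after the start of the letters.

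No paired analysis was possible because both replicates belong to 1 group. The peak lists give no read counts, so the smallest binding they could detect is unknown, and signals of different lists are not on one scale. Without untagged animals, peaks that any GFP precipitation would give cannot be told apart from those of LIN-26::GFP. Groups by letters hold 14 and 17 genes, and their intervals are wide.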

Other observations

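The share of outside snoRNA genes near a summit differed by when the gene entered the annotation, as far as the WormBase identifier number follows it. Of the 36 genes with an identifier below WBGene00200000, 28 had a summit (77.8%, 95% Wilson interval 61.9 to 88.3%), against 17 of the 94 with a later identifier (18.1%, 11.6 to 27.1%). Inside protein-coding genes the shares were 59.05% of 105 and 14.4% of 111. The early identifiers included 13 of the 14 outside genes with A and B letters, 11 of the 17 with PSE-like letters and 5 of the 82 with none of the letters. The letters and the identifier thus move together, and their parts in the result were not tested.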
